A study of Drosophila melanogaster with 91 samples.

Results

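The 9 pair-rule genes followed here were hairy (listed as hry, FBgn0001168), runt (run, FBgn0003300), even skipped (eve, FBgn0000606), fushi tarazu (ftz, FBgn0001077), odd skipped (odd, FBgn0002985), paired (prd, FBgn0003145), odd paired (opa, FBgn0003002), sloppy paired 1 (slp1, FBgn0003430) and sloppy paired 2 (slp2, FBgn0004567). They were chosen by name, not by their values, from the 15682 fly gene identifiers in the count table, and each name matched 1 identifier. Earlier results of these data were known when the choice was made. The samples were 91 single whole embryos of Drosophila melanogaster, for which the labels give no strain, genotype or treatment. Each embryo had its chorion removed, was kept on a cover slip, was seen to cellularize and was frozen at a set time from that moment. There was 1 embryo for every 15 min between -15 and 1335 min of labelled time, and RNA of each embryo was read by CEL-Seq, which sequences barcoded 3′ ends of polyadenylated transcripts. Embryos were grouped into 7 windows of 13 by labelled time: window 1 (-15 to 165 min), window 2 (180 to 360 min), window 3 (375 to 555 min), window 4 (570 to 750 min), window 5 (765 to 945 min), window 6 (960 to 1140 min) and window 7 (1155 to 1335 min).

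Pair-rule genes encode transcription factors that divide the early fly embryo into segments. Maternal and gap proteins set broad domains along the head-to-tail axis, pair-rule genes turn these into stripes in every other segment primordium, and their proteins then position the stripes of segment polarity genes such as engrailed and wingless. Most of them are used again later, in the nervous system, gut, heart or epidermis. The questions of order and of reuse are asked here of RNA levels in whole embryos, where fewer expressing cells and less RNA per cell cannot be told apart and where stripes cannot be seen.

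Libraries held between 3662 (120 min) and 3308015 (1020 min) gene counts, with a median of 1644069, and 6 libraries lay under 548023, the median divided by 3 (120, 210, 825, 1065, 1155 and 1170 min). Levels are given in CPM, the count of a gene scaled to a common total of gene counts. They are not divided by transcript length. Levels are compared here between embryos for the same gene and not between genes, and ratios of 2 genes are read only by their change with time. A count of 0 allows up to 3 counts, which was a level of 1.31 CPM in the library at -15 min, and such limits cover counting error only. The age of each embryo was also estimated from the 1000 most variable other genes. In 18 embryos the estimate lay over 195 min from the label, 13 of them estimated younger and 5 older, and 15 of the 18 were labelled 660 min or later. Without them window 6 keeps 5 of 13 embryos and window 7 keeps 8 of 13. Among the 23 embryos labelled up to 315 min, the estimate lay over 60 min from the label for those labelled 60 min (estimated at 145), 150 min (80), 225 min (635) and 240 min (160). The embryo labelled 60 min held 302 CPM of the neuronal gene elav and 1.52 CPM of the egg-supplied bcd. Summed levels of the 4 egg-supplied markers had a median of 1.38 CPM in window 7 and 173 CPM in window 1, and those of the 3 muscle markers 15423 CPM in window 7 and 2.29 CPM in window 1. The labels name no mothers or plates, and p-values rest on embryo-to-embryo spread, which within a window includes change over the 195 min it spans.

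All 9 pair-rule genes varied over the 91 embryos by edgeR's quasi-likelihood F-test of a smooth curve of labelled time, with adjusted p-values from 8.71e-12 (ftz) to 0.000832 (eve). Of all 8717 genes tested 82.1% were called, so a call of 9 of 9 is not far from what the whole table gave. The fitted curves of the 9 spanned a median of 4.41 on the log2 scale, against 3.17 over all genes. Embryos with the same library index in the deposited sample sheet are called a library pool here. Library pools follow labelled time in these data. With the pool as a covariate 2 of 9 were called, run (adjusted p = 0.00731) and slp2 (adjusted p = 0.0383), where 36.1% of all genes were. The share of each gene's summed level that lay in the early windows was as follows. Windows 1 and 2 held 78.7% of the summed CPM of prd and 78.1% of that of ftz, but 17.6% of that of hry. For eve the share was 66.7%, for slp1 67.2%, for opa 62.9%, for run 57.9%, for odd 52.3% and for slp2 49.8%. The gene was detected in 31 of 91 embryos for prd, 40 for ftz and 61 for eve, and in 75 or more for each of the other 6.

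**Figure D1:**
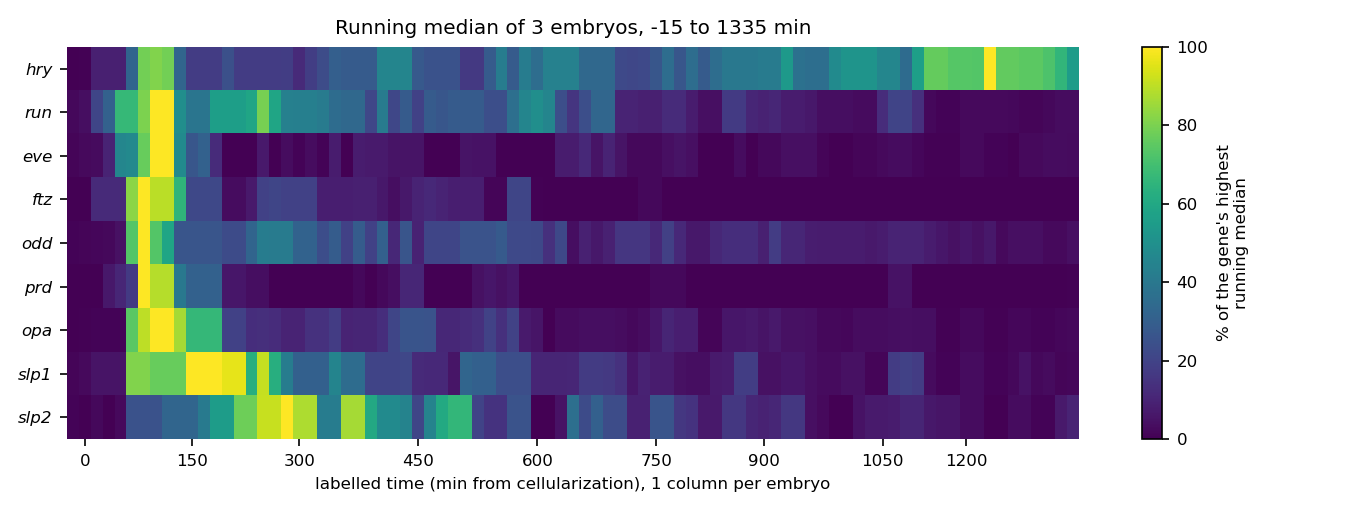
Heat map of the 9 genes (rows) over embryos in order of labelled time (columns, min from cellularization), leaving out the 6 libraries of low depth. Colour is the running median of 3 neighbouring embryos (fewer at the ends) as a percentage of the gene's own highest value. A reader should see run, eve, ftz, odd, prd and opa brightest near 75 to 90 min, slp1 and slp2 brightest later, and hry bright near 90 min and again, most brightly, at the right.

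The course of each gene was also set beside that of every other gene by Spearman correlation of log2(CPM + 1) over the 91 embryos, as a description in which the points share library pools and depth. Of the 9, hry stood apart, with values between -0.33 (run) and 0.02 (eve) to the other members. Values among opa, slp1, slp2, odd, run and ftz lay between 0.51 (run and slp2) and 0.79 (opa and slp1). For eve the highest value to a member was 0.46 (prd). The most similar gene outside the set was nkd (0.82) for opa, pdm2 (0.81) for slp1, gbb (0.80) for slp2, hth (0.78) for odd, CG34224 (0.81) for run, Delta (0.74) for ftz, CG9877 (0.72) for hry, CG4004 (0.61) for prd and CG43659 (0.54) for eve. After these came hth (0.81) and ptc (0.79) for opa, link (0.80) and nkd (0.80) for slp1, hth (0.80) and yellow-e3 (0.78) for slp2, and nub (0.77) and kni (0.76) for odd. For run they were Df31 (0.81) and sqd (0.81), for ftz CG7564 (0.73) and SMC2 (0.73), for hry Mal-A8 (0.68) and CG13705 (0.68), for prd Dph1 (0.61) and CG43659 (0.60), and for eve CG6885 (0.50) and l(1)G0289 (0.49). These names are not stable: without the libraries of low depth and the embryo labelled 825 min, 13 of the 27 were again among the 3 most similar genes of the same member.

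The first comparison asked how the genes moved through cellularization, gastrulation and germ-band extension, in the 23 embryos labelled -15 to 315 min, which form 1 library pool. All 9 varied by edgeR's F-test of a curve with 3 degrees of freedom, where 45.1% of 7573 genes were called. Adjusted p-values ran from 0.000453 (opa) to 0.0199 (slp1). The fitted curves spanned a median of 8.12 on the log2 scale for the 9 genes, against 2.39 over all genes. All 9 were also called without the 4 embryos whose estimated age lay over 60 min from the label, where 56.6% of all genes were. Scaled by spike-ins, 7 of 9 were called, where 41.3% of all genes were, and run (adjusted p = 0.28) and slp1 (adjusted p = 0.0763) did not pass.

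Among the genes usually placed at the top of the pair-rule network, hry, a repressor of the basic helix-loop-helix family, had 0 CPM at -15 min and 1.12 CPM at 0 min, and 272, 207 and 213 CPM at 75, 90 and 105 min. By 165 min it stood at 46.6 CPM. Across window 1 the lowest value was 0, the median 41.2 and the highest 272 CPM. The 3 embryos from 75 to 105 min were thus well above all others of that window.

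The homeobox repressor eve followed a similarly narrow course. It had 2.62 CPM at -15 min and 0 at 0 min, 48.6 CPM at 45 min and 50.0 CPM at 60 min, then 81.1, 106 and 129 CPM at 75, 90 and 105 min, 28.5 CPM at 135 min and 13.2 CPM at 165 min. The embryo labelled 150 min, estimated at 80 min, held 50.9 CPM. From 195 to 360 min the highest value was 25.0 CPM, 11 counts in the low-depth library at 210 min, and eve was at 0 in 5 of the 13 embryos of window 2. The annotation used here (BDGP6) places an antisense RNA, asRNA:CR43948, over eve, and that gene had 3 counts in all embryos together, while the strand setting of the authors' counting is not given in the sources used here.

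For ftz, a homeobox gene that eve represses, the levels were 95.5 CPM at 60 min, 78.8 CPM at 75 min, 162 CPM at 90 min and 85.5 CPM at 105 min. The lowest value of window 1 was 0, in 4 embryos, and the median was 15.0 CPM. The 4 embryos at 0 were those labelled -15, 0, 120 and 150 min, of which the library at 120 min held 3662 gene counts.

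Levels of run, the founding member of the Runx family, came up early by label. They reached 35.6, 52.7 and 114 CPM at 15, 30 and 45 min, 218 CPM at 90 min and 170 CPM at 105 min. The running median of 3 embryos reached 50% of its peak at 45 min for run, at 60 min for ftz, odd, opa and slp1, at 75 min for hry, eve and prd, and at 180 min for slp2. With 1 embryo left out, that time for slp2 was 90 min without the embryo labelled 75 min and 75 min without the one labelled 90 min, and for eve it was 45 min without the embryo labelled 90 or 105 min. In contrast to eve, run was detected in all 13 embryos of window 2, with a lowest value of 52.4, a median of 73.8 and a highest of 170 CPM. The highest run value of window 1, 273 CPM at 120 min, comes from the library of 3662 gene counts and stands for 1 count.

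The zinc finger gene odd and the Pax gene prd act largely downstream of the genes above. In odd, the highest value was 207 CPM at 60 min, in the embryo estimated at 145 min, followed by 122 CPM at 90 min, 89.3 CPM at 75 min and 71.4 CPM at 105 min. For prd the levels were 53.5 CPM at 60 min, 9.16 CPM at 75 min, 69.5 CPM at 90 min and 47.6 CPM at 105 min. The low-depth library at 210 min held 38.7 CPM of prd, from 17 counts, and prd was at 0 in all 6 embryos from 270 to 345 min. The higher values of prd thus fell in 3 of the 4 embryos from 60 to 105 min, and those of odd in all 4. The embryo labelled 240 min, whose estimated age also lay over 60 min from its label, held 85.8 CPM of odd. In window 2 odd was detected in 12 of 13 embryos and prd in 6 of 13. The annotation places asRNA:CR44592 over prd on the other strand.

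The zinc finger gene opa is expressed in a broad trunk domain and sets the time at which other pair-rule stripes change. It had between 0 and 8.15 CPM in the 5 embryos from -15 to 45 min. In the 4 embryos from 60 to 105 min the values were 282, 233, 314 and 394 CPM, and they were still 271 CPM at 135 min, 209 CPM at 165 min and 224 CPM at 180 min. The level at 195 min was 60.5 CPM, and the embryo labelled 240 min, estimated at 160 min, held 174 CPM. The last running median at 50% or more of the peak lay at 180 min for opa and at 105 min for hry and eve.

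The paired forkhead genes slp1 and slp2 are neighbours in the annotation and are known to act in overlapping stripes. The slp1 level was 338 CPM at 60 min in the embryo estimated at 145 min, and otherwise 116, 90.4 and 110 CPM at 75, 90 and 105 min, 159 CPM at 135 min, 155 CPM at 180 min and 138 CPM at 195 min. The slp2 level was 37.4 CPM at 60 min, 12.4, 12.1 and 36.0 CPM at 75, 90 and 105 min, 20.2 CPM at 165 min, 45.1 CPM at 195 min and 64.9 CPM at 270 min. Its highest values fell in window 2, where the lowest value was 0, the median 42.4 and the highest 64.9 CPM. The lowest was in the library at 210 min, 1 of the 6 of low depth.

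**Figure D2:**
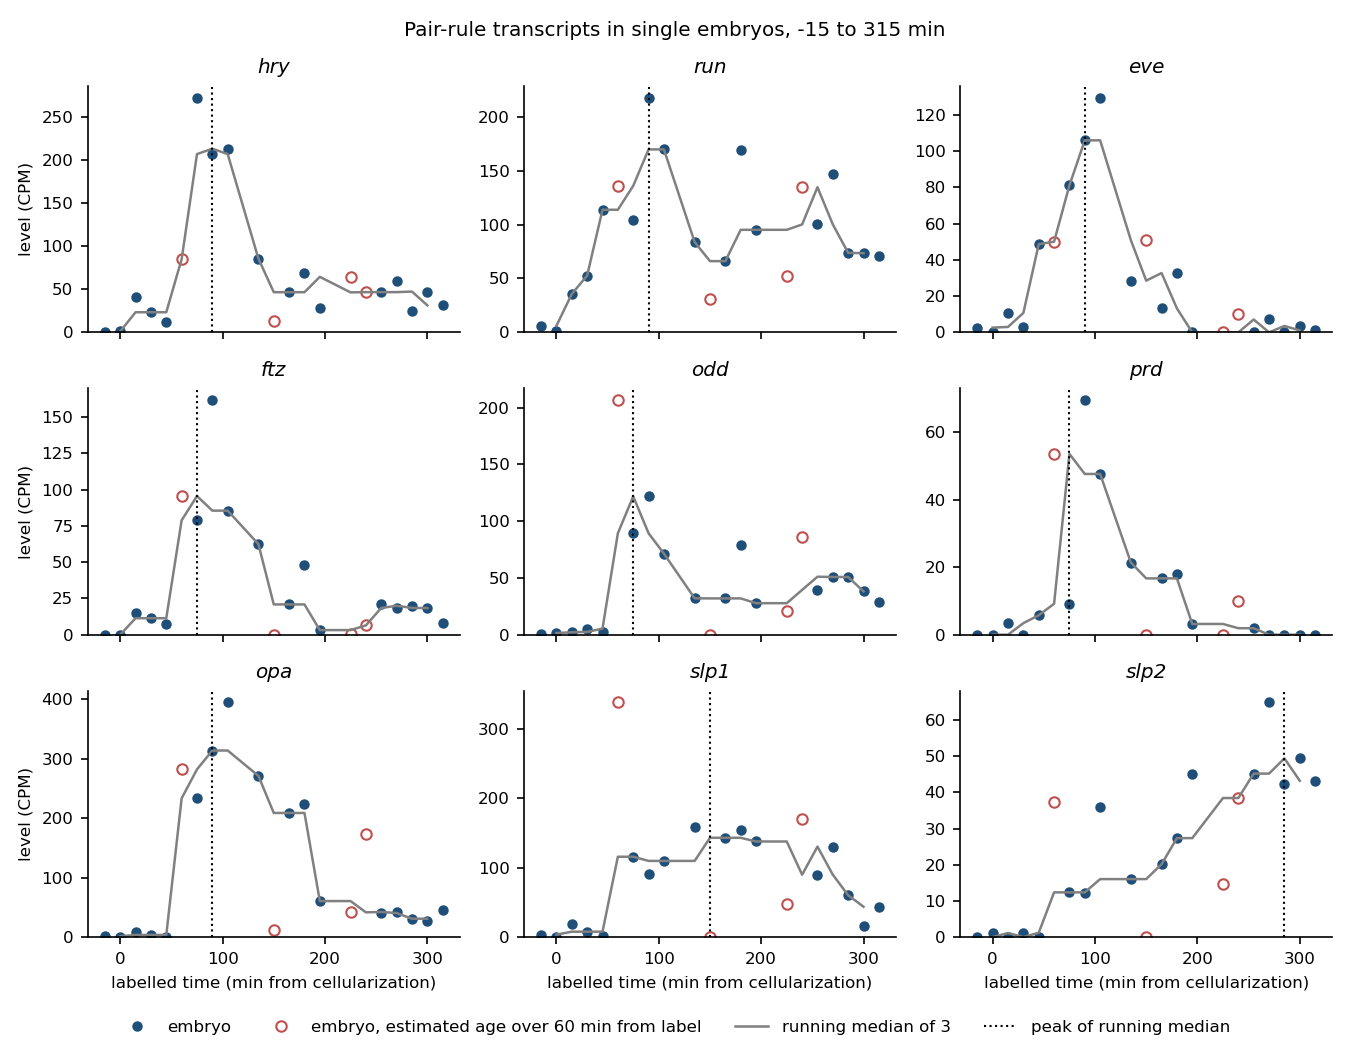
Level of each gene (CPM, linear axis) in the 21 embryos labelled -15 to 315 min that were not of low depth, against labelled time in min. Open circles mark the 4 embryos whose estimated age lay over 60 min from the label, the line is the running median of 3 embryos and the dotted line its peak. A reader should see the peaks at 75 to 90 min in 7 panels and at 150 and 285 min for slp1 and slp2.

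As a measure less dependent on 1 library, the peak was taken as the highest running median of 3 neighbouring embryos among the 21 of sufficient depth. It fell at 75 min for ftz, odd and prd (95.5, 122 and 53.5 CPM) and at 90 min for hry, run, eve and opa (213, 170, 106 and 314 CPM). It fell at 150 min for slp1 (143 CPM) and at 285 min for slp2 (49.4 CPM). By this measure 7 of 7 other members thus peaked before both sloppy paired genes. This count stayed at 7 when each embryo was left out in turn, with running medians of 5, with all 23 libraries, per spike-in count, with estimated age as the time axis and without the 4 embryos off by over 60 min. It was 0 when the single highest embryo was taken, since slp1 was highest at 60 min, in the embryo estimated at 145 min.

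The order among the other 7 was not resolved by these embryos. With 1 embryo left out at a time the peak lay between 60 and 75 min for odd, between 60 and 90 min for ftz and prd, and between 75 and 90 min for hry, run, eve and opa, so that the ranges overlap. For slp1 the range was 150 to 225 min and for slp2 255 to 285 min, with no overlap between these or with the other 7. With estimated age as the time axis the peaks were at 105 min for hry, run, eve and opa, 110 min for ftz, odd and prd, 145 min for slp1 and 285 min for slp2.

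A straight line through window 1 addressed the direction of change in those 13 embryos. By edgeR's quasi-likelihood F-test 0 of 9 pair-rule genes were called, where 21.4% of 6483 genes were. At an unadjusted p under 0.05 there were 3 (eve, opa and slp2), DESeq2 called 6 and limma voom 2. Of the 6483 genes, 2474 had an unadjusted p under 0.05, DESeq2 called 2256 and limma voom 2198. All 9 estimates were positive, between 1.14 ± 0.58 (run) and 2.72 ± 1.12 (opa) per 60 min on the log2 scale (estimate ± SE). Without the embryos labelled 60 and 150 min, 7 of 9 rose by the same test, where 9.13% of all genes rose, and hry (adjusted p = 0.0591) and eve (adjusted p = 0.0626) did not pass. In those 11 embryos the slope was 3.70 ± 0.85 for opa (adjusted p = 0.00368), 2.89 ± 0.78 for prd (adjusted p = 0.0102), 2.87 ± 0.78 for odd (adjusted p = 0.0104), 2.77 ± 0.63 for slp2 (adjusted p = 0.0035) and 2.39 ± 0.53 for slp1 (adjusted p = 0.00293). This setting was chosen after seeing the data.

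Which genes gained on which within window 1 was asked with log2 ratios of levels in the same embryo, with a pseudocount of 5 CPM. For the 36 pairs of members and 12 embryos, permutation p-values (100000 resamples, two-sided) were adjusted over the pairs. The ratio of odd to opa fell with labelled time, with Pearson's r = -0.835 (adjusted p = 0.0428) and Spearman's rho = -0.832 (adjusted p = 0.0482), and r = -0.820 once the 2 embryos farthest from the median time were left out. The log2 ratio was -0.22, 0.38, -0.88, 0.27 and 0.58 at -15, 0, 15, 30 and 45 min, and -2.39, -2.90, -1.72 and -2.53 at 105, 135, 150 and 165 min. The 4 latest embryos all lay below the 5 earliest. In those 5 earliest embryos opa had between 0 and 8.15 CPM, so their ratios depend strongly on the pseudocount. At 150 min opa had 11.5 CPM and ftz 0, and the ratios of odd and of ftz to opa were both -1.72, a value also set largely by the pseudocount. The fall of the ratio thus cannot be told apart from opa coming up from near 0. For ftz to opa the values were r = -0.794 (adjusted p = 0.0526) and rho = -0.804 (adjusted p = 0.0482), with r = -0.780 once the same 2 embryos were left out. No other pair passed. Neither ratio passed with a pseudocount of 1 or 20 CPM in place of 5, with all 13 embryos or without the embryos at 60 and 150 min, where r for odd to opa lay between -0.856 and -0.731, with adjusted p-values between 0.0857 and 0.144. With estimated age as the time axis 7 pairs passed for r and 8 for rho, including all 6 ratios of hry, run, eve, ftz, odd and prd to opa.

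Between windows 2 and 1, eve was the one gene of 8 tested that fell, by a log2 fold change of -2.49 ± 0.88 (adjusted p = 0.0365). Of 5739 genes 14.0% fell, and 1 of 8 is near that share. The level of eve averaged 7.80 ± 10.5 CPM in window 2 and 40.3 ± 42.8 CPM in window 1 (SD, n = 13 each). The lowest, median and highest values were 0, 3.53 and 32.7 CPM in window 2, against 0, 28.5 and 129 CPM in window 1, so the windows overlap. The call was lost within 1 library pool (-2.36, adjusted p = 0.101), without the embryo labelled 225 min (-2.29, adjusted p = 0.0574) and without all 4 off by over 60 min (-2.21, adjusted p = 0.096). The estimate for slp2 was 1.59 ± 0.71 (adjusted p = 0.0978), with 34.7 ± 18.1 CPM in window 2 and 10.5 ± 13.6 CPM in window 1. For ftz it was -1.50 ± 0.76 (adjusted p = 0.15), and prd had too few counts to be tested in these 26 embryos. limma voom called odd, slp1 and slp2 higher in window 2, where 19.5% of all genes rose, and did not call eve (adjusted p = 0.174).

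Between windows 3 and 2, run and slp1 fell, 2 of 7 tested, where 1.39% of 5682 genes fell. The level of run averaged 45.9 ± 20.4 CPM in window 3 and 96.0 ± 42.8 CPM in window 2, a log2 fold change of -1.003 ± 0.271 (adjusted p = 0.034). Its lowest, median and highest values were 16.6, 45.6 and 83.8 CPM in window 3, against 52.4, 73.8 and 170 CPM in window 2. The level of slp1 averaged 33.1 ± 22.2 CPM in window 3 and 89.1 ± 50.0 CPM in window 2, a log2 fold change of -1.37 ± 0.39 (adjusted p = 0.0415). Its lowest, median and highest values were 5.25, 29.3 and 81.3 CPM in window 3, against 16.2, 72.3 and 171 CPM in window 2, and both genes overlap between the windows. The highest value of window 3 was in each case that of the embryo labelled 525 min, estimated at 235 min, and without the embryos off by over 195 min the estimates were -1.21 for run (adjusted p = 0.00756) and -1.70 for slp1 (adjusted p = 0.00913), where 2.16% of all genes fell. edgeR called 0 members with spike-in scaling (run adjusted p = 0.104, slp1 0.149), in a fit over all 91 embryos (0.315 and 0.195) or within 1 library pool (0.875 for run, -0.87 on the log2 scale). Of all genes, these settings called 7 of 5682, 358 of 8717 and 0 of 7349, in that order. The other 5 had adjusted p-values from 0.239 to 0.936.

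No member was called between later neighbouring windows in the main test. edgeR called 0 of 6 tested members from window 4 over window 3 (0.27% of all genes called), with 1 (opa) at an unadjusted p under 0.05, 1 by DESeq2 (opa) and 0 by limma voom. It called 0 of 6 from window 5 over window 4 (0.0956% of all genes called), with 1 (run) at an unadjusted p under 0.05 and 0 by the other tools. It called 0 of 5 from window 6 over window 5 (0.549% of all genes called), with 0 at an unadjusted p under 0.05 and 0 by the other tools. It called 0 of 4 from window 7 over window 6 (0.0% of all genes called), with 3 (hry, run and opa) at an unadjusted p under 0.05 and 0 by the other tools. The largest of these estimates with an unadjusted p under 0.05 was -2.03 ± 0.73 for run in window 7 over window 6 (adjusted p = 0.297). In window 4 over window 3 opa had -1.90 ± 0.53 (adjusted p = 0.124), with 17.1 ± 17.5 CPM in window 4 and 63.9 ± 47.5 CPM in window 3. Over all genes an unadjusted p under 0.05 was reached by 827 of 5546 in window 4 over window 3. It was reached by 1023 of 6275, 1089 of 6198 and 781 of 6151 in the 3 later comparisons. In the same order of the 4 comparisons DESeq2 called 130, 335, 589 and 20 genes, and limma voom 11, 253, 1 and 0.

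**Figure D3:**
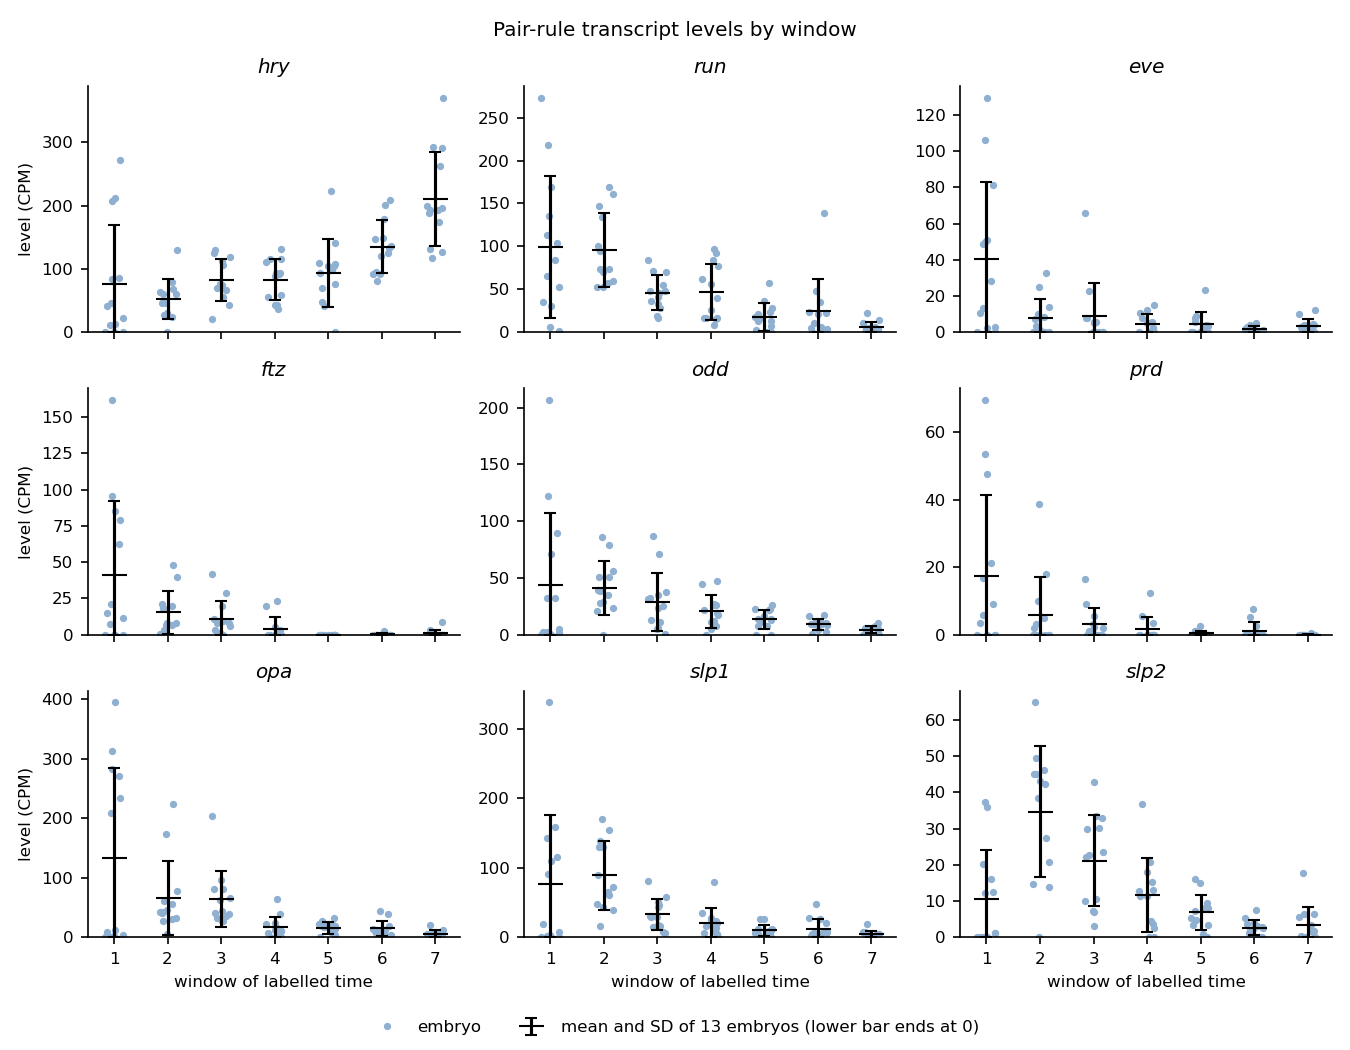
Level of each gene (CPM, linear axes) in the 7 windows of labelled time, each point 1 embryo, shifted sideways for sight, with the mean and SD of 13 embryos. A reader should see hry highest in window 7 (211 CPM), slp2 highest in window 2 (34.7 CPM) and ftz at 0 in all embryos of window 5.

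The later reuse of the genes was asked in the 65 embryos labelled 375 to 1335 min. By edgeR's F-test of a smooth curve 6 of 7 tested members varied, hry, run, odd, opa, slp1 and slp2, where 59.8% of 8121 genes were called, and their median fitted range of 2.25 (7 tested) was close to the 2.14 of all genes. For eve the adjusted p was 0.737, and ftz and prd had too few counts to be tested. With the library pool as a covariate hry (adjusted p = 0.0294) and run (adjusted p = 0.0403) were called, where 7.54% of all genes were. The later peak, the highest running median of 5 neighbouring embryos, reached 94.5% of the early peak for hry, at 1140 min with 201 CPM, and 60.9% for slp2, at 480 min with 30.1 CPM. It was 45.3% for run, at 585 min with 76.9 CPM, and between 6.20% (prd) and 30.6% (slp1) for the other 6. Per spike-in count it was 24.4% for run, 11.6% for ftz and 16.0% for opa, against 25.6% for opa in CPM. With running medians of 3 it was 124% for hry, at 1230 min with 263 CPM. The later peaks of odd (420 min), opa (435 min), slp2 (480 min) and slp1 (510 min) fall in window 3, near the start of the interval searched. For ftz it was 21.0%, at 555 min, and 9.82% without the embryo labelled 525 min.

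**Figure D4:**
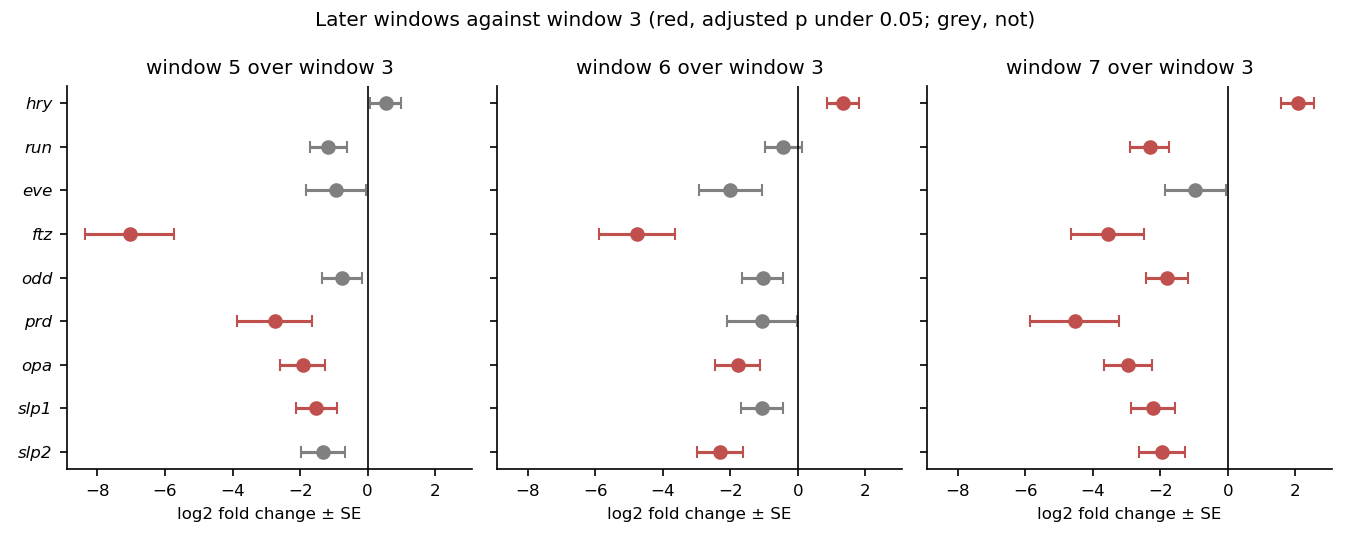
Log2 fold changes with SE (edgeR, 91 embryos in 1 fit) of the 9 genes in windows 5, 6 and 7, each over window 3. Red points passed an adjusted p of 0.05 and grey ones did not. The point of ftz in window 5, where all 13 embryos were at 0, depends on the prior count of the fit and is no bound. The points of ftz in windows 6 and 7 rest on 5 and 8 counts there, and those of prd in windows 5 and 7 on 8 and 1. A reader should see hry to the right of 0 and called in windows 6 and 7, and 7 genes to the left of 0 and called in window 7.

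Against window 3, hry was the one pair-rule gene that rose. In window 7 it averaged 211 ± 74.3 CPM, against 82.9 ± 33.7 CPM in window 3 (SD, n = 13 each), a log2 fold change of 2.06 ± 0.48 (adjusted p = 0.000182), where 32.0% of 8717 genes rose. The lowest, median and highest values were 117, 194 and 371 CPM in window 7, against 20.5, 75.6 and 130 CPM in window 3. The windows overlap only in that 2 embryos of window 7, at 117 and 127 CPM, lie below the highest of window 3. In window 6 it averaged 135 ± 41.6 CPM, with a log2 fold change over window 3 of 1.33 ± 0.47 (adjusted p = 0.0192), where 27.2% of all genes rose. In window 5 the estimate was 0.54 ± 0.46 (adjusted p = 0.37). Without the embryos off by over 195 min the values were 2.29 in window 7 (adjusted p = 0.000267) and 1.77 in window 6 (adjusted p = 0.0117), and over window 5 it then also rose in window 6, by 1.205 (adjusted p = 0.0422). Scaled by spike-ins the values over window 3 were 1.19 in window 7 (adjusted p = 0.0549) and 0.64 in window 6 (adjusted p = 0.334), and the medians of all genes were then -0.60 in window 7 and -0.47 in window 6. Among the 7 windows, the mean of hry in window 7 exceeded the next, that of window 6, by slightly more than the larger of the 2 SDs, and no other neighbours in its order did. Without the embryos off by over 195 min the means were 217 ± 60.5 CPM in window 7 (SD, n = 8) and 164 ± 52.1 CPM in window 6 (SD, n = 5), and this gap was smaller than the larger SD.

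In window 7 over window 3, 7 of 9 fell, where 19.7% of all genes fell, and the median of the 9 was -2.22, against 0.19 over all genes. The falls were -4.54 ± 1.32 for prd (adjusted p = 0.00262), -3.56 ± 1.08 for ftz (adjusted p = 0.00419), -2.96 ± 0.70 for opa (adjusted p = 0.000254), -2.31 ± 0.57 for run (adjusted p = 0.000486), -2.22 ± 0.64 for slp1 (adjusted p = 0.00264), -1.94 ± 0.68 for slp2 (adjusted p = 0.0128) and -1.81 ± 0.62 for odd (adjusted p = 0.011). In window 7 prd had 1 count in the 13 embryos together, and ftz had 8 counts, in 2 embryos. The sizes of the falls of prd and ftz thus rest on few counts and depend on the prior count of the fit. For opa the lowest, median and highest values were 0, 5.56 and 20.4 CPM in window 7, against 26.7, 43.0 and 203 CPM in window 3, and the windows did not overlap. For run they were 0, 4.28 and 22.2 CPM in window 7, against 16.6, 45.6 and 83.8 CPM in window 3, with 1 embryo of window 7 above the lowest of window 3. For eve, which is kept in a few neurons, heart cells and the anal plate, the estimate was -0.96 ± 0.91 (adjusted p = 0.387), with 3.66 ± 3.79 CPM in window 7 and 9.28 ± 18.1 CPM in window 3. It was detected in 10 of 13 embryos of window 7 and 7 of 13 of window 3, and the embryo labelled 525 min, estimated at 235 min, alone held 65.7 CPM. Without the embryos off by over 195 min 6 of 9 fell in window 7, where 17.8% of all genes fell, and odd no longer passed (-1.43, adjusted p = 0.103), while the estimate for eve was -0.07 (adjusted p = 0.97). In the 8 embryos of window 7 left, ftz and prd had 0 counts, so that ftz was at least 45.1-fold and prd at least 15.2-fold lower than in the 11 left in window 3, taking 3 counts over the group for 0.

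In window 5 over window 3, 4 of 9 fell (ftz, prd, opa and slp1), where 11.3% of all genes fell. ftz had 0 counts in all 13 embryos of window 5, which together held 19915455 gene counts, and 191 counts in window 3, so that it was at least 61.6-fold lower, taking 3 counts over the group for 0. The median over the 9 was -1.33, with the fitted value or with this bound. Scaled by spike-ins 2 of 9 fell (ftz and opa), where 8.65% of all genes fell, and by limma voom 1 (ftz), where 12.9% fell. Without the embryos off by over 195 min 1 of 9, ftz, fell, where 9.72% of all genes fell, with -1.25 for opa (adjusted p = 0.154), -0.90 for slp1 (adjusted p = 0.258) and -1.89 for prd (adjusted p = 0.222). Among those left out, the embryo labelled 525 min held 203 CPM of opa, 81.3 CPM of slp1 and 16.4 CPM of prd, the highest values of window 3, and the library labelled 825 min, estimated at 35 min, had 0 counts of all 9 members. Without that library alone, slp1 no longer passed (-1.38, adjusted p = 0.063).

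In window 6 over window 3, ftz (-4.76 ± 1.13, adjusted p = 0.000475), slp2 (-2.31 ± 0.68, adjusted p = 0.00523) and opa (-1.77 ± 0.66, adjusted p = 0.0289) fell, 3 of 9, where 7.46% of all genes fell. In window 6 ftz was at 0 in 12 of 13 embryos and had 5 counts, all at 990 min, so the size of its fall rests on 1 library. Scaled by spike-ins 7 of 9 fell, all but hry and prd, where 23.2% of all genes fell. In window 6 run had a lowest value of 0.621, a median of 10.9 and a highest of 139 CPM, the last at 1005 min in an embryo estimated at 535 min. Without the embryos off by over 195 min, run (-2.25, adjusted p = 0.00415) and slp1 (-2.67, adjusted p = 0.016) fell and opa (-1.96, adjusted p = 0.101), slp2 (-2.31, adjusted p = 0.0506) and ftz (-3.18, adjusted p = 0.0859) did not pass, with 5 embryos left in window 6 and 12.1% of all genes called lower.

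**Figure D5:**
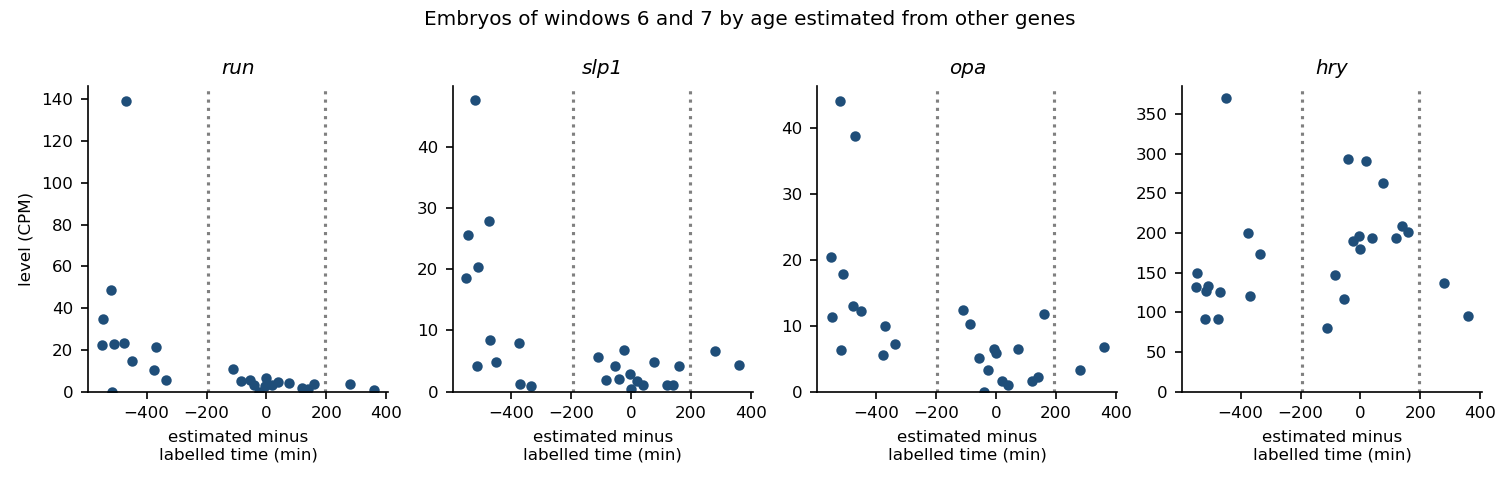
Level (CPM, linear axes) of run, slp1, opa and hry in the 26 embryos of windows 6 and 7, each point 1 embryo, against its estimated age minus its labelled time in min. Dotted lines mark 195 min to either side. A reader should see the highest values of run, slp1 and opa (139, 47.5 and 44.2 CPM) among the embryos to the left of the lines, and hry high also between them.

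The 26 embryos of windows 6 and 7 were set out by estimated age, as a description. In the 2 estimated over 195 min older than their label, hry had 95.1 and 136 CPM, run 0.621 and 3.63 CPM, slp1 4.35 and 6.65 CPM, and opa 6.83 and 3.33 CPM, each at 975 and 1020 min. In the 11 embryos estimated over 195 min younger than their label, run had a lowest value of 0, a median of 22.2 and a highest of 139 CPM, against 0, 3.45 and 10.9 CPM in the 13 within 195 min. For slp1 the values were 0.962, 8.49 and 47.5 CPM in the 11, against 0.493, 2.04 and 6.85 CPM in the 13. For opa they were 5.56, 12.3 and 44.2 CPM in the 11, against 0, 5.06 and 12.4 CPM in the 13. For hry they were 91.6, 132 and 371 CPM in the 11, against 80.7, 194 and 293 CPM in the 13. All 4 genes overlap between these embryos. The summed level of the 2 cuticle markers had a median of 102 CPM in the 11 and 7165 CPM in the 13, the 3 muscle markers 1796 and 17384 CPM, the 3 neuronal markers 488 and 417 CPM and the 2 hemocyte markers 31.5 and 43.9 CPM, with none of these sums at 0. The share of spike-ins among gene and spike-in counts had a median of 8.55% in the 11 and 4.53% in the 13. Estimated age was itself read from such variable genes, and the part of these differences in the levels of run, slp1 and opa was not tested.

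The genes that act on the pair-rule genes, with them or after them were counted by list. In the embryos from -15 to 315 min, where 45.1% of all genes varied, 13 of 14 maternal and gap regulators varied, led by the nuclear receptor genes knrl (whose fitted log2 level spanned 10.04) and kni (9.87). Of 9 partners and corepressors tested, 3 varied, a share below that of all genes, led by hth (10.26), a homeobox cofactor, and ftz-f1 (7.62), the nuclear receptor that binds the ftz protein. Of 10 paralogs and secondary segmentation genes 9 varied, led by comm (10.32) and bowl (8.80), a relative of odd. Of 8 segment polarity targets tested 8 varied, led by hh (10.13), which encodes a secreted signal, and ci (10.05), which encodes its transcription factor. Both Toll family receptors tested varied, Toll-6 (7.64) and Tollo (2.94). Within window 1, where 21.4% of all genes were called, 2 of 14 regulators, 0 of 9 partners, 2 of 6 paralogs and secondary genes, 1 of 6 segment polarity targets and 1 of 2 receptors were called. There, cad (-2.36 ± 0.41 per 60 min, adjusted p = 0.00102) and hb (-0.84 ± 0.23, adjusted p = 0.0175) fell, and bowl (2.28 ± 0.67, adjusted p = 0.0232), Ten-m (0.86 ± 0.26, adjusted p = 0.0256), fz2 (1.81 ± 0.55, adjusted p = 0.0261) and Toll-6 (2.33 ± 0.75, adjusted p = 0.0348) rose.

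In window 2 over window 1, 14.0% of all genes fell and 11.1% rose, and the counts of regulators, partners and segment polarity targets called lay close to these shares. The maternally supplied bcd (-5.53 ± 0.81, adjusted p = 2.05e-05) and cad (-3.31 ± 0.71, adjusted p = 0.00102) fell, 2 of 14 regulators tested. Of 8 partners tested 1 fell, ftz-f1 (-5.54 ± 0.85, adjusted p = 3.49e-05). Of 8 paralogs and secondary genes tested 3 rose, led by drm (3.21 ± 0.63, adjusted p = 0.000443) and bowl (2.93 ± 0.75, adjusted p = 0.00452), both relatives of odd. Of 7 segment polarity targets tested 1 rose, fz2 (1.64 ± 0.59, adjusted p = 0.0419), a receptor for the wingless protein.

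In window 7 over window 3, where 19.7% of all genes fell and 32.0% rose, 10 of 14 regulators fell and 0 rose, led by upd1 (-5.31 ± 1.03, adjusted p = 1.25e-05), a ligand of the JAK-STAT pathway, and bcd (-3.80 ± 1.38, adjusted p = 0.0166). In window 7 bcd was detected only at 1185 min (0.388 CPM) and 1320 min (0.460 CPM). The size of its fall thus rests on few counts and depends on the prior count of the fit. Of 9 partners 3 fell, led by gro (-1.56 ± 0.36, adjusted p = 0.000175), a corepressor that several pair-rule proteins recruit, and exd (-1.03 ± 0.23, adjusted p = 0.000128), while ftz-f1 rose (5.11 ± 1.13, adjusted p = 0.000108). Of 10 paralogs and secondary genes 5 fell, led by gsb (-3.21 ± 1.04, adjusted p = 0.00742), a Pax gene related to prd, and sob (-2.48 ± 0.66, adjusted p = 0.00101), the neighbour and relative of odd, while ken rose (2.17 ± 0.63, adjusted p = 0.00247). Of 10 segment polarity targets 3 fell, a count that like that of the partners is not far above the share of all genes, led by mid (-1.54 ± 0.62, adjusted p = 0.0311) and nkd (-1.29 ± 0.52, adjusted p = 0.0319), while H15 rose (2.66 ± 0.86, adjusted p = 0.00712). Of 2 Toll family receptors Tollo fell (-1.91 ± 0.40, adjusted p = 4.96e-05). Median log2 fold changes were -1.85 for the regulators, -0.69 for the partners, -1.27 for the paralogs and secondary genes, -1.13 for the segment polarity targets and -1.37 for the receptors, against 0.19 over all genes.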

How the data were processed

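Counts per gene and embryo were used as the authors deposited them, 1 column per embryo, with 92 spike-in transcripts and 5 summary lines. The authors also deposited a sample sheet (unit: other) that gives lane and library index, and the library pool was taken here from that index. Per the submitters' processing notes, CASAVA 1.8, Bowtie2 2.1.0 and HTSeq 0.5.4p3 were used with build BDGP5. Neither the strand setting nor the handling of molecular identifiers is given in the sources used here. Of all counts 60.7% lay on genes, 3.29% on spike-ins and 36.1% on summary lines, which were left out of library sizes and tests. CPM were computed from gene counts alone.

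Tests used edgeR 4.0.16 (R 4.3.3): quasi-likelihood F-tests with TMM normalization, genes kept by filterByExpr, and Benjamini-Hochberg adjustment over all genes tested, called at an adjusted p under 0.05. Curves of time were natural splines with 5 degrees of freedom over all embryos, 3 from -15 to 315 min and 4 from 375 to 1335 min. Neighbouring windows were fitted on their 26 embryos, and windows 5, 6 and 7 over window 3 in 1 fit of 91 embryos, so that these share the embryos of window 3. DESeq2 1.42.0 and limma 3.58.1 (voom) were alternatives, with spike-in scaling, no filter, and library pool as covariate. Peaks, ratios and likeness used Python 3.11.15, numpy 2.4.6 and scipy 1.17.1. Age was estimated for each embryo with that embryo left out, from splines with 8 knots on a 5-min grid. The fits were tested on simulated data.

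The rule for named genes was all 9 members, the 3 most similar genes to each, and up to 2 called genes per list, comparison and direction. Atro, Rpd3, wg and 18w from the lists were not matched. The members and lists were chosen with earlier results of these data known. The settings that use estimated age, or leave out the embryo labelled 525 min, were chosen after seeing the data. Exact binomial intervals (95%) were computed for each level and cover counting error only.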

Additional observations from a re-analysis of the deposited data

How the results depend on the processing

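Of 847 values of single members under the alternatives, 732 kept direction and side of the threshold, 49 no longer passed, 32 newly passed and 34 changed sign. Called members were 2 with the library pool as a covariate (all embryos, and 375 to 1335 min), where 36.1% and 7.54% of all genes were called. In the window 1 trend called members were 1 with spike-in scaling, 6 by DESeq2, 2 by limma voom and 7 without embryos off by over 60 min. Genes called were, in that order, 2093, 2256 and 2198 of 6483, and 1973 of 6625. In window 2 over window 1 called members were 3 by voom, and 0 within 1 library pool and without embryos off by over 195 or 60 min. Genes called were, in that order, 2209 of 5739, 1030 of 6017, 1327 of 5771 and 1425 of 5690. In window 3 over window 2 called members were 0 with spike-in scaling, within 1 pool and in the fit of all embryos, and 1 by voom and without low-depth libraries. Genes called were, in that order, 7 of 5682, 0 of 7349, 358 of 8717, 347 of 5682 and 163 of 5824. In window 4 over window 3 called members were 1 (opa) by DESeq2, without the filter and in the fit of all embryos. Genes called were then 130 of 5546, 1772 of 12573 and 1004 of 8717. In window 5 over window 4 there was 1 (ftz) without the filter and in the fit of all embryos, with 137 of 13000 and 270 of 8717 genes. In window 6 over window 5 there was 1 (hry) without embryos off by over 195 min, with 257 of 7535 genes. Over window 3, window 5 had 2 called members with spike-in scaling, 1 by voom and 1 without embryos off by over 195 min, and window 6 had 7 with spike-in scaling. Genes called in either direction were, in that order, 2545 of 8717, 4225 of 8717, 3974 of 9721 and 3602 of 8717. Members that peaked before slp1 and slp2 were 0 by the single highest embryo and 7 to 7 with each embryo left out. Ratio pairs were 0 with pseudocounts of 1 and 20 CPM, all 13 embryos or without embryos off by over 60 min, and 7 (r) and 8 (rho) on estimated age. The causes were not tested.

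Signs changed as follows (log2). In window 2 over window 1 by voom: hry 1.31, ftz 0.11, odd 2.00 and opa 1.95, and odd 0.18 without embryos off by over 60 min. In window 3 over window 2: opa -0.33 with spike-in scaling, -0.0054 without low-depth libraries and -0.30 without embryos off by over 195 min, and hry -0.015 within 1 pool. In window 4 over window 3: hry -0.20 and run -0.11 with spike-in scaling, run -0.0060 by voom, odd 0.066 within 1 pool. In window 5 over window 4, opa: 0.20 with spike-in scaling, 0.35 by voom, 0.0060 without low-depth libraries or the embryo labelled 825 min, 0.087 within 1 pool and 0.13 without embryos off by over 195 min. In window 6 over window 5, run, opa and slp1: -0.40, -0.71 and -0.43 with spike-in scaling, -0.12, -0.0094 and -0.28 by voom, -1.31, -0.64 and -1.27 within 1 pool, and -1.67, -0.74 and -1.78 without embryos off by over 195 min. Over window 3, eve: 0.27 by voom and 0.78 without embryos off by over 195 min in window 5, and 0.60 by voom in window 7. Of these, odd by voom passed the threshold (adjusted p = 0.0418).

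Spike-in scaling moved the median of all genes by -0.68 in the window 1 trend, -0.41 in window 2 over window 1, -0.52 in window 6 over window 5, and -0.69 and -0.79 in windows 6 and 7 over window 3 (by -0.22, -0.12 and -0.14 in window 4 over 3, 7 over 6 and 5 over 3, and DESeq2 size factors moved window 7 over 3 by -0.14). In the first 5 of these the share of calls that rose was then 4.35% against 20.6%, 29.5% against 44.2%, 2.54% against 88.2%, 43.8% against 78.5% and 38.2% against 61.9%, and 85.7% against 60.5% in window 3 over window 2. No paired analysis was possible because the labels give 1 embryo per time and no shared replicate numbers. Library pool follows labelled time, so pool and time cannot be told apart beyond the values above. Windows of 13 embryos were too large for the test of single distant samples, so that the absence of flags says nothing about outlying embryos.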
